A study of Mus musculus with 4 samples.

Results

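The genes described here encode the nuclear subunits of 4 enzymes of oxidative phosphorylation: respiratory complexes I, III and IV and the ATP synthase. They were chosen by gene name (Nduf followed by a, b, c, s or v and a digit, Uqcr, Cox4 to Cox8, and Atp5), with at least 1 protein-coding transcript and leaving out names marked as pseudogenes. This gave 81 of the 55536 annotated genes: 37 for complex I, 8 for complex III, 18 for complex IV and 18 for the ATP synthase. The data were 4 libraries of total RNA depleted of ribosomal RNA, from the cytosolic fraction of macrophages grown from the bone marrow of C57BL/6J mice. All 4 libraries had the same treatment, which was 100 ng/ml lipid A (the part of bacterial lipopolysaccharide that activates Toll-like receptor 4) for 12 h, 12 h after a wash without it, and 100 ng/ml lipid A again for 15 min. They are labelled biological replicates 1 to 4, name 1 donor record, and carry no age or sex of the animals. With 1 group and no control in the samples used here, every value below is a level in these cells or a difference between genes, not a response to lipid A.

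Electrons from nutrients enter the respiratory chain mainly at complex I (NADH dehydrogenase), pass through ubiquinone to complex III (cytochrome bc1 complex) and through cytochrome c to complex IV (cytochrome c oxidase), which reduces oxygen. The protons pumped on the way drive the ATP synthase, whose F1 head makes ATP while the membrane-bound Fo part turns a ring of c subunits. Complexes I, III and IV and the ATP synthase are built from a few subunits encoded in mitochondrial DNA and many encoded in the nucleus. Macrophages activated through Toll-like receptor 4 are known for a shift of energy supply from respiration towards glycolysis, and complex I is also known as a source of reactive oxygen species in them.

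Libraries held between 30660511 and 48223718 expected counts, and the 81 genes held 0.393% to 0.445% of the counts on annotated genes. All 9 macrophage markers were above 1 TPM (a relative transcript level that is divided by transcript length), with summed levels of 4414 to 6819 TPM per library. All 6 striated muscle markers and all 5 testis germ cell markers had too few counts to be tested, with sums of at most 0.03 TPM and 0.18 TPM per library. Markers above 1 TPM in the other lists were S100a8 and S100a9 (2 of 7 neutrophil genes), Cd4 (1 of 5 T cell genes), Cd79b (1 of 4 B cell genes) and Pf4 (1 of 4 megakaryocyte genes, 100.3 TPM), and none of the 4 NK cell, 4 dendritic cell, 4 erythroid or 4 fibroblast genes. Their part in the levels below was not tested. The p-values measure the spread between these 4 libraries, which may be in part technical since all name 1 donor record. TPM sums to a fixed total, so each level also depends on the other transcripts of the library. Each library holds RNA of many cells together, so fewer cells with a transcript and less of it per cell cannot be told apart.

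Nearly all of the respiratory genes were expressed. Of the 81 genes, 74 had at least 10 expected counts over the 4 libraries and were tested, and 73 of these lay above 1 TPM (limma on log2 of TPM plus 0.1, threshold 0.05 on p adjusted over every gene in the fit). Among all 16262 genes tested, 58.2% lay above that level and 35.1% below it. By enzyme, the genes above were 36 of 37 for complex I, 8 of 8 for complex III, 12 of 18 for complex IV and 17 of 18 for the ATP synthase. None of the tested members lay below 1 TPM. Cox7a1 was the tested member on neither side, with 0.84, 1.14, 0.45 and 1.08 TPM in replicates 1 to 4. The 7 genes with too few counts were Ndufa4l2, Cox4i2, Cox6b2, Cox7b2, Cox8b, Cox8c and a further gene model named Atp5o. Of these, 5 are the tissue-restricted complex IV isoforms described below.

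The 4 enzymes did not share 1 level. The median over all named members of complex I was 35.3, 30.2, 33.2 and 37.4 TPM in replicates 1 to 4. That of complex III was 84.1, 64.5, 70.5 and 78.5 TPM, that of complex IV 68.7, 57.9, 59.8 and 78.1 TPM, and that of the ATP synthase 84.4, 58.4, 67.8 and 83.8 TPM. In every library the complex I median was the lowest, and it did not overlap the range of the other 3. The means of the other 3 medians were 74.4 ± 8.62 (SD, n = 4) for complex III, 73.6 ± 12.7 for the ATP synthase and 66.1 ± 9.27 for complex IV, so their ranges overlapped. The complex IV median includes 5 genes near 0 and was 121.1 TPM over the 13 members with at least 10 counts. The median of all genes tested was 2.69 ± 0.289 TPM. Summed over its genes, each library gave complex I 1194 to 1563 TPM, complex III 441 to 580.2 TPM, complex IV 1119 to 1507 TPM and the ATP synthase 1197 to 1646 TPM.

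**Figure D1:**
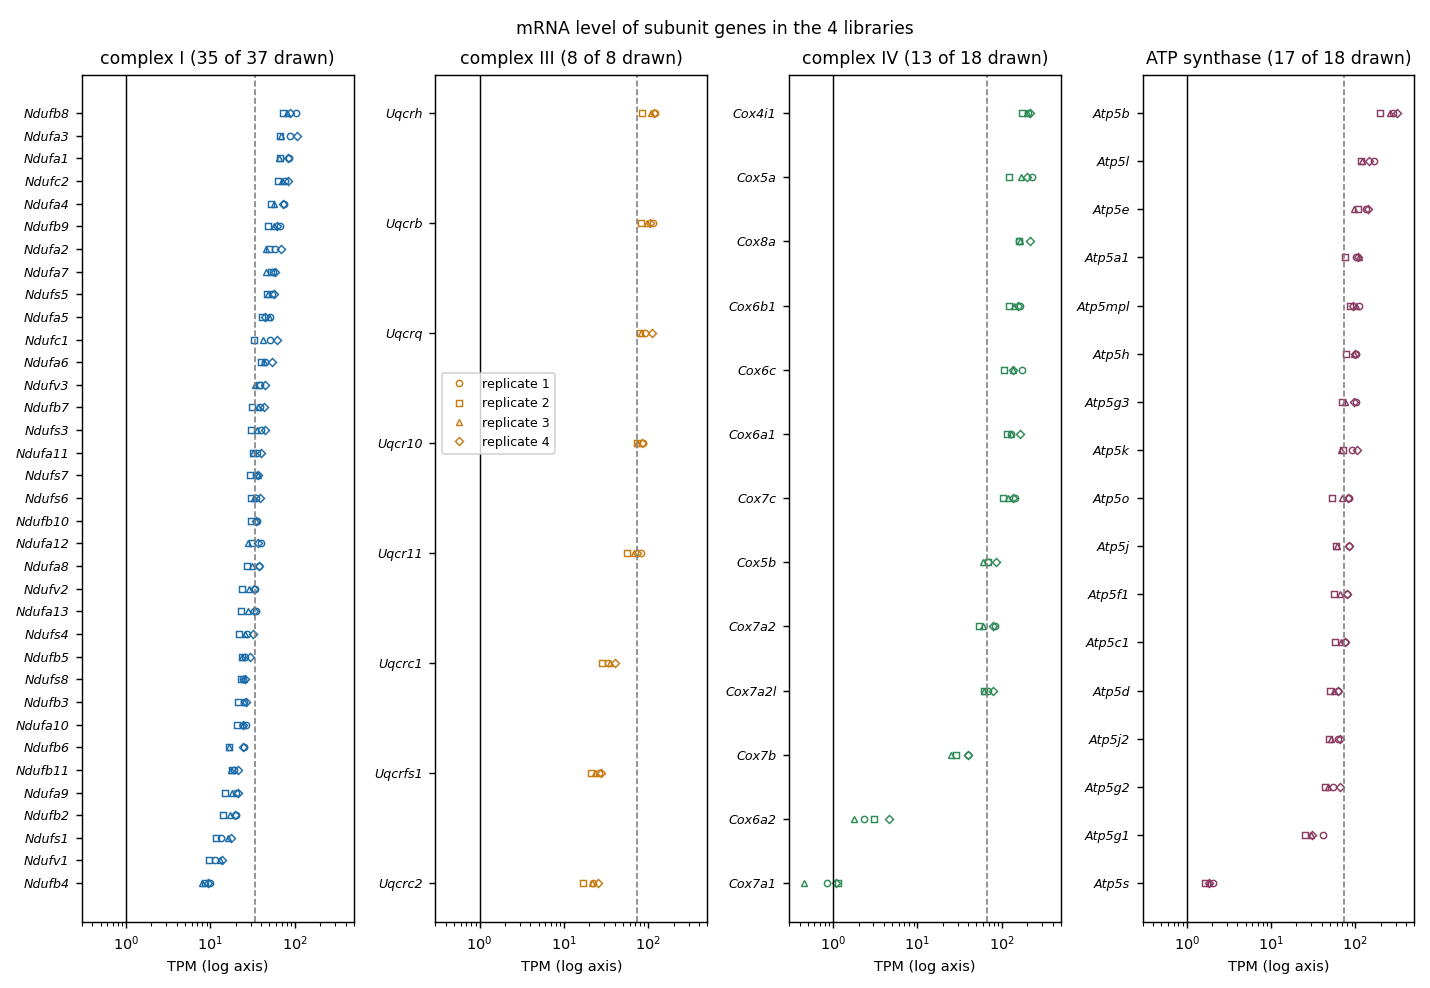
Level of the members with at least 10 expected counts (1 complex I gene is not drawn), in TPM on a log axis, with 1 symbol per library, ordered by mean within each enzyme. The dashed line is the mean over libraries of the enzyme's median over all its named members, and the solid line is 1 TPM. Within each enzyme nearly all members drawn lie within about 1 decade of each other, and Cox6a2, Cox7a1 and Atp5s lie far to the left.

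The nuclear-encoded core subunits of complex I carry its flavin and iron-sulfur clusters or help to hold them, and their genes differed in level. Each gene was compared, library by library, with the median of its complex on the log2 scale. This comparison does not depend on how the library total is scaled. Because the median is taken over the same genes, members lie on both sides of it by construction. Of the 36 complex I genes tested, 12 lay above that median, 14 below it and 10 on neither side (limma, adjusted p below 0.05). Among all genes tested, 7.79% lay above the complex I median and 89.2% below it. Ndufv1, which carries the flavin that takes the electrons from NADH, had 11.4, 9.61, 13.0 and 13.6 TPM. It was 0.350 times the complex I median (log2 -1.52 ± 0.08 SE, adjusted p = 6.61e-07). Ndufs1, the large iron-sulfur subunit next to it, had 13.4, 11.6, 16.3 and 17.4 TPM, or 0.429 times the median (adjusted p = 4.66e-06). Both were among the 3 lowest of the tested complex I genes in every library, and the ratio of Ndufs1 to Ndufv1 stayed between 1.17 and 1.28. Ndufv2 and Ndufs8, both iron-sulfur subunits, were also below the median, with means of 29.8 and 24.6 TPM. Ndufs3 and Ndufs7 were on neither side, at 0.12 and 0.01 above it on the log2 scale with adjusted p of 0.15 and 0.874. The call for Ndufv2 (adjusted p = 0.0318) was lost without replicate 2, 3 or 4 (0.13, 0.0993 and 0.0662) and in the second of the 2 deposited quantifications (0.805).

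The highest complex I levels belonged to small accessory subunits, which surround the core and are needed for assembly and stability. Ndufb8, a membrane-arm subunit whose protein is a common marker of assembled complex I, had 105, 72.2, 80.9 and 88.4 TPM, or 2.52 times the median (log2 1.34 ± 0.09 SE, adjusted p = 1.99e-06). Ndufa3 had 87.7, 67.6, 68.0 and 106 TPM, and Ndufa1 had 86.0, 66.1, 64.7 and 82.5 TPM. In TPM, replicates 1 and 4 were the 2 higher ones for all 3 genes. With each library rescaled to a fixed total over protein-coding genes, this held for Ndufa3 only (276, 267, 227 and 290). On that scale Ndufb8 had 330, 286, 270 and 241, and Ndufa1 had 271, 261, 216 and 225. The other 9 genes above the median were Ndufa2, Ndufa4, Ndufa5, Ndufa6, Ndufa7, Ndufb9, Ndufc1, Ndufc2 and Ndufs5, from 45.4 to 73.5 TPM. Coding transcripts held 53.1%, 22.6% and 47.6% of the level of Ndufa3, Ndufa5 and Ndufc1, and 25.5% of that of Ndufs4. The order of complex I genes given here is therefore one of gene-level TPM. Ndufa4 keeps a complex I name, although its protein is now placed in complex IV. Besides 4 core genes, those below the median were Ndufa9, Ndufa10, Ndufa13, Ndufb2, Ndufb3, Ndufb4, Ndufb5, Ndufb6, Ndufb11 and Ndufs4, from 8.92 to 29.5 TPM. The call for Ndufa13 (adjusted p = 0.0328) was lost without replicate 2, 3 or 4 (0.133, 0.119 and 0.0603), and that for Ndufb5 (adjusted p = 0.000654) in the second quantification (0.0827). Ndufa8, Ndufa11, Ndufa12, Ndufb7, Ndufb10, Ndufs6 and Ndufv3 were on neither side. Replicate 3 was the lowest library for Ndufb4, the lowest expressed complex I gene above the count limit, which had 9.84, 8.63, 7.90 and 9.32 TPM, or 0.264 times the median (adjusted p = 1.46e-07).

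Complex III split into a high and a low set. Its small subunits Uqcrh (hinge protein), Uqcrb and Uqcrq were above the complex median, with 107 ± 16.4, 99.0 ± 13.6 and 91.1 ± 13.5 TPM (SD, n = 4). Among all genes tested, 3.47% lay above that median and 94.8% below it. The 2 core proteins and the Rieske iron-sulfur protein, which passes electrons on to cytochrome c1, were below it. Uqcrc1 had 33.6, 28.3, 34.9 and 40.1 TPM, Uqcrc2 had 22.3, 16.9, 21.3 and 25.2 TPM, and Uqcrfs1, the Rieske protein, had 25.8, 20.9, 23.4 and 27.4 TPM. They stood at 0.461, 0.289 and 0.329 times the complex median (adjusted p = 4.16e-06, 1.26e-07 and 1.33e-07). Every library of these 3 genes was below every library of the small subunits, also of Uqcr10 and Uqcr11. Uqcr10 and Uqcr11 had 79.2 ± 6.74 and 69.6 ± 11.0 TPM and were on neither side. They are the 2 middle genes that set the median (0.099 and -0.099 from it on the log2 scale), so their place near it was fixed in advance. Uqcrc1 and Uqcrc2 encode the paired core proteins, and Uqcrc1 was 1.51 to 1.68 times Uqcrc2 in the 4 libraries. The call for Uqcrq (adjusted p = 0.0164) was lost without replicate 2 (0.0628).

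Complex IV held the highest levels of the members chosen by name after Atp5b. Cox4i1, the isoform of subunit 4 found in most tissues, had 204, 174, 201 and 217 TPM. Cox5a had 226, 120.3, 168 and 199.6 TPM, with replicate 2 the lowest and replicate 1 the highest. Cox8a had 158, 160.0, 165 and 216 TPM, with replicate 4 standing above the other 3 on this scale. Rescaled to a fixed total over protein-coding genes it had 497, 633, 550 and 591, with replicate 2 the highest. In log2 counts relative to library size, replicate 4 was 0.22 and replicate 2 was 0.11 above the mean of the other 3. Against the median of all 18 named genes, 7 were above (Cox4i1, Cox5a, Cox6a1, Cox6b1, Cox6c, Cox7c and Cox8a), 3 below (Cox6a2, Cox7a1 and Cox7b) and 3 on neither side (Cox5b, Cox7a2 and Cox7a2l). In the second quantification Cox5b was above this median (log2 0.24, adjusted p = 0.0214). Among all genes tested, 4.03% lay above it and 94.3% below it.

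This reading of complex IV depends on the 5 genes near 0 that enter the median. Against the median of the 13 members with counts, an alternative added after the data had been seen, Cox4i1, Cox5a, Cox6b1 and Cox8a were above, with log2 differences of 0.72, 0.53, 0.26 and 0.52. Cox6a1, Cox6c and Cox7c were then on neither side (adjusted p = 0.128, 0.13 and 0.573). Cox5b, Cox7a2 and Cox7a2l were then below, by -0.78, -0.84 and -0.84 on the log2 scale (adjusted p = 6.66e-05, 2.45e-05 and 8.83e-06). Cox7b, with 39.8, 28.7, 24.9 and 39.3 TPM, was below in both (log2 -1.01 against the median of all 18 genes). Cox5a and Cox5b encode neighbouring subunits of the enzyme, and the ratio of their TPM ranged from 1.76 in replicate 2 to 3.31 in replicate 1. For the other 3 enzymes the same change altered no call.

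Summed over all transcripts of a gene, the highest level of all members was that of the catalytic beta subunit of the ATP synthase. Atp5b (ENSMUSG00000025393.12, chr10:128083273-128090391, mm10) had 282, 198, 255 and 309 TPM, or 3.54 times the enzyme's median (log2 1.82 ± 0.09 SE, adjusted p = 5.47e-08). The alpha subunit, which alternates with beta in the F1 head in equal number, is encoded by Atp5a1 and had 103, 75.4, 110.4 and 107 TPM. The ratio of Atp5b to Atp5a1 in TPM was 2.64 ± 0.245 (SD, n = 4) and lay between 2.31 and 2.88. Only 51.7% of the Atp5b level lay on coding transcripts, against 99.2% for Atp5a1, 90.2% for Cox4i1, 99.6% for Cox5a and 100.0% for Cox8a, so the rank and the ratio hold for gene-level TPM. The gamma subunit of the central shaft, Atp5c1, had 69.2 ± 8.38 TPM, and delta and epsilon of the same shaft, Atp5d and Atp5e, had 57.8 ± 5.77 and 119.7 ± 21.7 TPM. In each library Atp5b was the highest of the F1 genes and Atp5d the lowest.

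Among the genes of the Fo part and the stator, Atp5l (subunit g) was the highest. It had 137 ± 24.3 TPM, Atp5mpl (a small proteolipid) 97.5 ± 10.6, Atp5h (subunit d) 93.8 ± 10.7 and Atp5g3 (a subunit c gene) 85.5 ± 15.3, and these 4 were above the enzyme's median with Atp5a1, Atp5b and Atp5e. Among all genes tested, 3.62% lay above that median and 94.8% below it. Atp5k (subunit e), Atp5o (the oligomycin sensitivity protein), Atp5j (coupling factor 6), Atp5f1 (subunit b) and Atp5c1 were on neither side. Below were Atp5d, Atp5j2 (subunit f), Atp5g2, Atp5g1 and Atp5s. Atp5s, whose product is called coupling factor B and is not a structural part of the enzyme, had 2.07, 1.65, 1.86 and 1.85 TPM, or 0.0268 times the median. The call for Atp5g3 (adjusted p = 0.0253) was lost without replicate 2, 3 or 4 (0.111, 0.062 and 0.0651) and with a pseudocount of 1 (0.0528). The further gene model named Atp5o (ENSMUSG00000116933.1) had 0 counts in all libraries, and its leading transcript shares 42.6% of its 31-base words with the other Atp5o and 51.4% with the neighbouring gene Donson, so the division of reads among them is uncertain.

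Atp5g1, Atp5g2 and Atp5g3 encode the same mature subunit c behind different mitochondrial import sequences. A transcribed processed pseudogene, Gm10175 (chr7:23946646-23947290, minus strand, mm10), shares sequence with Atp5g2. The last 228 bases of the coding regions, stop codon included, were compared with the window of Gm10175 most like Atp5g2, and the first 90 of them are given here 5′ to 3′ for Atp5g2 and, with the bases that differ from it in capitals, for the others, since they show where reads of these genes can be told apart.
Atp5g2: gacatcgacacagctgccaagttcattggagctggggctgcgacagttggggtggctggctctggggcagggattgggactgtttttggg
Gm10175: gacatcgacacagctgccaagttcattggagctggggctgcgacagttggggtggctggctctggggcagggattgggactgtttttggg
Atp5g1: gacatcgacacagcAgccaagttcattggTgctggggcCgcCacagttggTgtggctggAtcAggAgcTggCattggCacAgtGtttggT
Atp5g3: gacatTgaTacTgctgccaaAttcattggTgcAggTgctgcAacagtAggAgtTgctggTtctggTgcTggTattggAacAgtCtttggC
Over the 228 bases, Gm10175 did not differ from Atp5g2, Atp5g1 differed at 34 positions (85.1% identity) and Atp5g3 at 49 (78.5%). Of the 31-base words of the leading Atp5g2 transcript, 87.7% occur in a transcript of another gene.

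In the first quantification, made from a transcriptome alignment, Atp5g3 was the highest of the subunit c genes with 101, 69.1, 75.8 and 96.4 TPM. Atp5g2 followed with 54.9, 43.8, 47.8 and 66.5 TPM, and Atp5g1 with 41.6, 25.2, 30.0 and 30.98 TPM. The order was the same in all 4 libraries. On the log2 scale Atp5g3 exceeded Atp5g1 by 1.42 ± 0.16 (SD, n = 4) and Atp5g2 by 0.68 ± 0.14, and Atp5g2 exceeded Atp5g1 by 0.74 ± 0.29. In the second quantification, made directly from the reads, Atp5g2 fell under Atp5g1, with a log2 difference of -1.67. Gm10175 had 15.4 ± 2.49 TPM (418 expected counts on average) in the first and 23.1 ± 5.87 TPM (1880.0 estimated counts) in the second. Atp5g2 went the other way, from 53.3 ± 9.95 TPM (1729 counts) to 3.70 ± 1.75 TPM (366 counts). With Gm10175 added to Atp5g2, an alternative added after the data had been seen, the log2 difference to Atp5g1 was 1.12 in the first and 1.25 in the second quantification. The order of Atp5g2 and Atp5g1 differed between the quantifications for Atp5g2 alone and did not differ for its sum with the pseudogene.

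The 2 quantifications differed mainly by a shift that other genes shared. As deposited, second minus first had a median log2 difference of -1.40 over the 10329 genes compared and -1.51 over 73 members. In that comparison 2 members were lower by more than 1 on the log2 scale, Atp5g2 (-3.92, adjusted p = 3.36e-28) and Atp5b (-1.78, adjusted p = 0.0222), and 0 were higher (limma treat, adjusted p below 0.05), beside 4.28% lower and 2.22% higher among all genes compared. The call for Atp5b was lost without replicate 3 or 4 (adjusted p = 0.314 and 0.23), and both calls were lost with no filter on low values (0.326 for Atp5b and 0.164 for Atp5g2). Other settings called many more members lower: 61 of 70 among genes of at least 10 TPM and 45 of 73 with a pseudocount of 1. When the TPM of each library was rescaled to a fixed total over protein-coding genes, the medians were 0.05 over 14119 genes and -0.05 over the members. Atp5g2 was then the 1 member called, at -2.50 ± 0.52 (SD, n = 4, adjusted p = 0.0481), beside 0.956% lower and 3.31% higher among all genes compared. Atp5b then differed by -0.32 ± 0.08 and was not called. The sum of Atp5g2 and Gm10175 differed by 0.08 ± 0.02 on that scale, and the sum of the 3 subunit c genes and Gm10175 by 0.00079 ± 0.02. The largest positive differences were 0.59 for Cox6a2 and 0.36 for Cox7b, and neither was called.

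**Figure D2:**
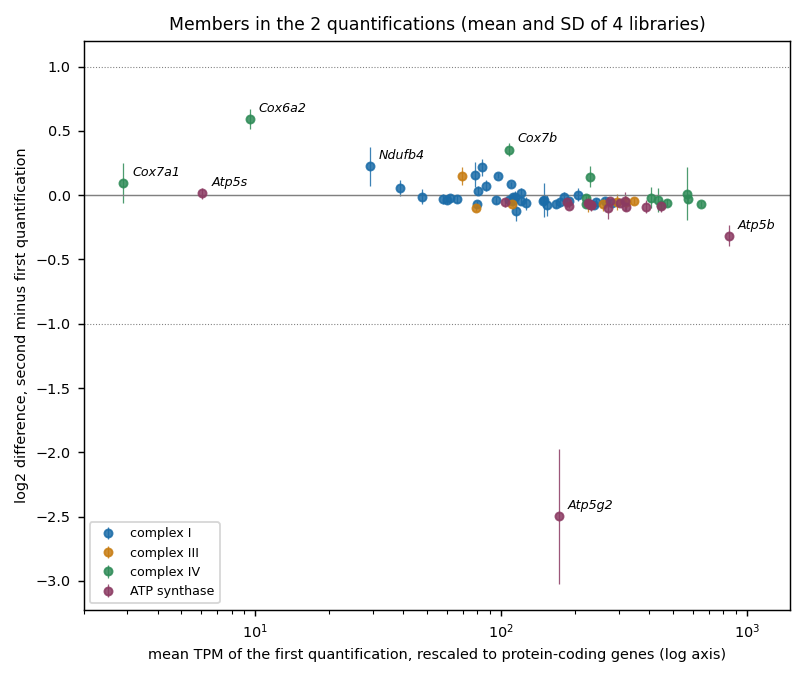
Difference between the 2 quantifications for each member (second minus first, log2, after both were rescaled to protein-coding genes) against its mean level in the first, with SD bars over 4 libraries. Dotted lines mark a log2 difference of 1 in either direction. Atp5g2 lies at -2.50, and all other members lie between -0.32 and 0.59.

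Other members share sequence with other genes, most of them processed pseudogenes, and their levels are uncertain to that degree. Of the 81 leading transcripts, 21 share at least 20% of their 31-base words with at least 1 other gene. Ndufb4 shares 38.3% with Ndufb4c, annotated as a processed pseudogene on chromosome 15, which was higher than Ndufb4 itself in TPM. Ndufb4c had 44.4, 32.9, 39.1 and 41.5 TPM, and Ndufb4c over Ndufb4 was 3.82 to 4.94 in the 4 libraries. The expected counts of the 2 genes were alike, 432 ± 64.0 for Ndufb4c and 422 ± 44.7 for Ndufb4, and Ndufb4c had a mean effective length of 171 bases. Their summed level was 48.4 ± 5.44 TPM, above the complex I median. Gm12338, which shares 31.8% of the words of Cox7c, was listed at 124 ± 40.5 TPM from 143 ± 54.1 counts and an effective length of 17.9 bases, and at 7.19 ± 4.998 TPM in the second quantification. Cox7c itself moved little on the rescaled scale (-0.02 ± 0.08). BC002163, which shares 47.3% of the words of Ndufs5, had 14.0 TPM in replicate 1 and at most 0.96 TPM in the others. Ndufb1-ps, annotated as a non-coding gene and left out by the rule, had 48.3 ± 12.1 TPM.

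Longer transcripts tended to have lower TPM in complexes I, III and IV. Over the 71 members with a mean of at least 5 TPM, Spearman's rho between the length of the leading transcript and the mean TPM was -0.41, and between length and the mean expected count it was 0.44. Within complex I rho with TPM was -0.58 (36 genes), within complex III -0.60 (8 genes), within complex IV -0.46 (11 genes) and within the ATP synthase -0.04 (16 genes). These values are across genes of the same libraries and describe them only, and TPM is itself divided by length. Ndufs1, whose leading transcript of 2661 bases is the longest of the members, was low in TPM (14.7 ± 2.66) but had 1975 ± 562 expected counts, more than Ndufb9 with 1789 ± 231. Atp5b and Atp5a1 stood apart with long transcripts (1916 and 2471 bases) and high levels in both units, at 16484 ± 2928 and 14303 ± 3641 expected counts.

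**Figure D3:**
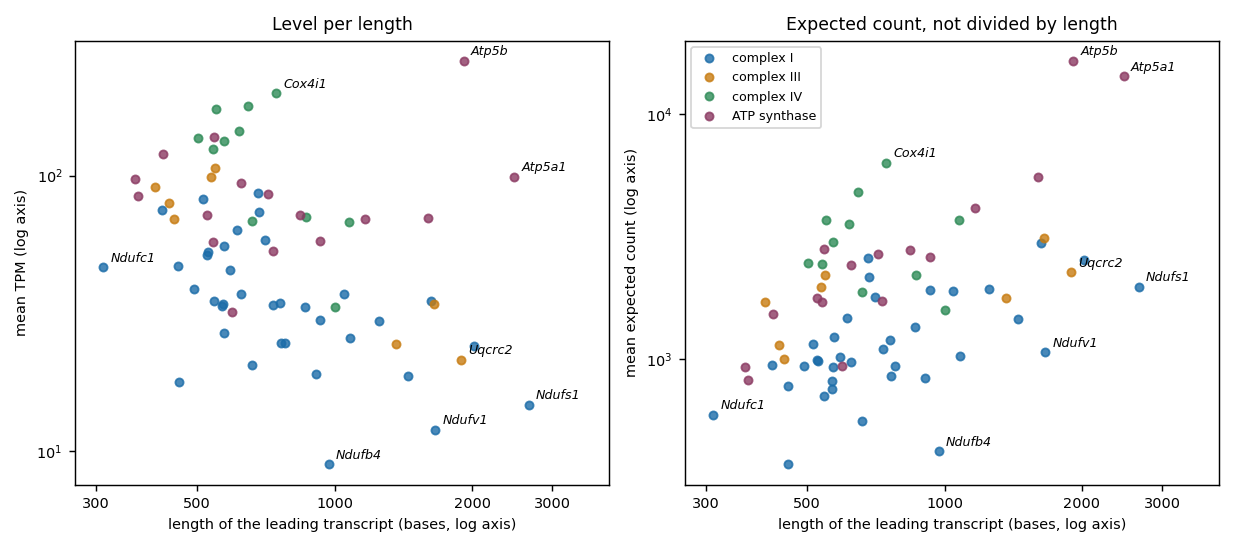
Length of the leading transcript against the mean TPM (left) and against the mean expected count (right) of the 71 members of at least 5 TPM, all axes logarithmic, coloured by enzyme. Points of complexes I and III slope down on the left, and Atp5b and Atp5a1 lie at the upper right of both panels.

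Several complex IV subunits exist as a common and a tissue-restricted isoform, and the common one was higher in every library. Cox4i2, known from lung and from oxygen sensing, had 0.08, 0, 0.05 and 0 TPM, which is 4 counts in all. Cox4i1 was 6124 times as high in mean TPM (95% Poisson counting interval 2392 to 22478, covering the counts of Cox4i2 only). Cox6b2, known from testis, had 3 counts in all, and Cox6b1 was 2233 times as high (interval 764 to 10826). The testis or muscle isoforms Cox7b2, Cox8b and Cox8c had 0 counts in every library. With the 3 counts per library that a count of 0 allows, Cox7b was at least 206-fold higher than Cox7b2 in each library, and Cox8a at least 357-fold higher than Cox8b and at least 608-fold higher than Cox8c. Ndufa4l2, a relative of Ndufa4 known as a hypoxia target, had 1 count in all, and Ndufa4 had 73.7, 52.3, 56.0 and 72.3 TPM, a ratio of 12717 with an interval of 2282 to 502275.

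The heart and skeletal muscle isoforms Cox6a2 and Cox7a1 were the exceptions to near absence. Cox6a2 (chr7:128205435-128206387, minus strand, mm10) had 2.31, 3.06, 1.79 and 4.63 TPM from 344 counts in all and lay above 1 TPM (adjusted p = 9.35e-05). As deposited in the second quantification its log2 level was 0.70, and it was not above 1 TPM. Its mean count was 144 there, against 86 in the first. The deposited TPM of all genes compared was lower in the second by a median log2 difference of -1.40. Cox6a1 was 45.3 times as high (log2 difference 5.53 ± 0.46, SD, n = 4). Cox7a1 had 39 counts in all, and Cox7a2 was 78.0 times as high (log2 difference 6.18 ± 0.57). Both muscle isoforms were lowest in replicate 3. The muscle markers Actc1, Myh6 and Mb were at 0 in every library, and the whole list of 6 summed to between 0 and 0.03 TPM. Cox6a2 overlaps the gene Itgad on the other strand, which had 0.0275 TPM. Reads of the 2 strands could not be told apart, since the sources used here do not say whether counting used strand.

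Not every pair of relatives was unequal. Cox7a2l is known for a role in joining complexes III and IV into supercomplexes, which was not examined in these cells. Cox7a2 had 81.8, 54.0, 59.8 and 78.0 TPM, and Cox7a2l had 69.0, 61.7, 62.2 and 78.2 TPM. Their log2 difference was 0.25, -0.19, -0.06 and -0.0042 in the 4 libraries (exact two-sided sign-flip permutation test, p = 0.875, n = 4). The ranges of the 2 genes overlapped. In the other 11 of 12 pairs, all 4 libraries agreed in direction, and the exact sign-flip permutation test gave p = 0.125, the smallest that 4 libraries allow (0.136 after Benjamini-Hochberg adjustment over 12 pairs). This design cannot reach a p of 0.05 for a single pair, and the sizes above stand in place of a call.

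**Figure D4:**
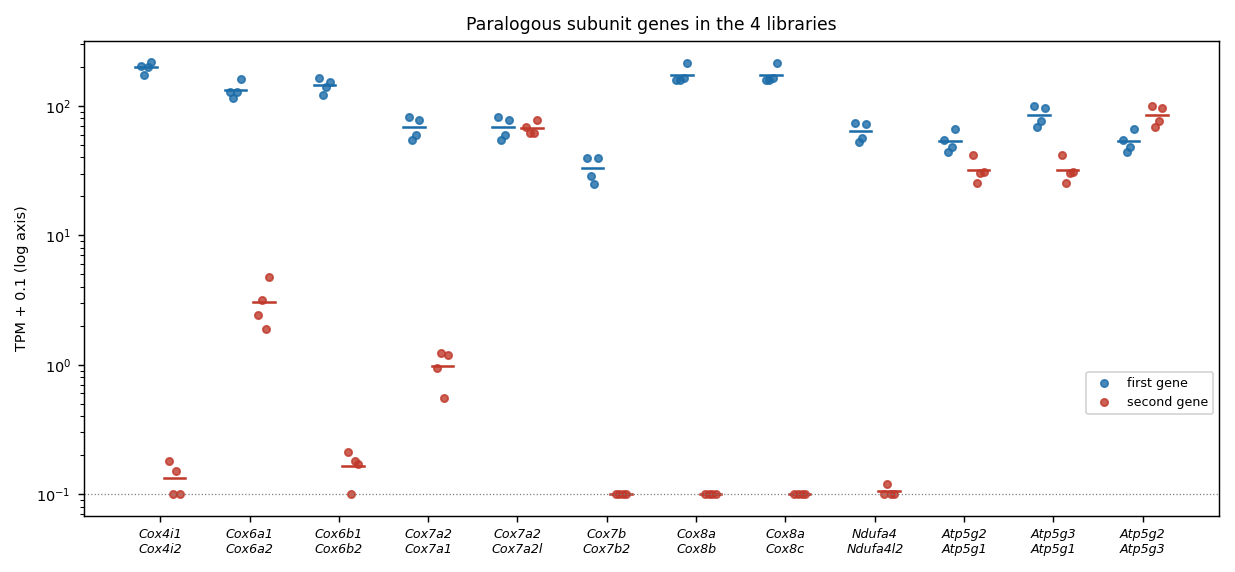
TPM plus 0.1 on a log axis for both genes of 12 pairs of related subunit genes, 1 point per library, with a bar at the mean. The dotted line marks a TPM of 0. The first gene of each pair (blue) lies between 24.9 and 217 TPM, while Cox4i2, Cox6b2, Cox7b2, Cox8b, Cox8c and Ndufa4l2 lie at or near the dotted line.

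The median spread between replicates was close to or below that of all genes of at least 10 TPM, which were not matched to the members in level. The gene-wise biological coefficient of variation (edgeR, expected counts) had a median of 0.130 over complex I, 0.123 over complex III, 0.133 over complex IV and 0.142 over the ATP synthase. With DESeq2's gene-wise estimates it was 0.0746 for complex I and 0.0728 for complex III, and no DESeq2 value over all genes is given here. With edgeR, the median over all 16262 genes tested was 0.206. Over the 4381 genes of at least 10 TPM it was 0.143, with a middle range of 0.129 to 0.165 (25th to 75th percentile). The complex III median lay below this range, and that of complex I lay at its lower end. Among the smallest values of members of at least 10 TPM were 0.113 for Ndufc2 and 0.117 for Uqcrc1. The largest were 0.177 for Cox5a, 0.176 for Ndufb6 and 0.170 for Cox7b. Below that level Cox7a1 reached 0.523, Cox6a2 0.364 and Atp5s 0.256.

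Replicate 1 was the library in which most members were high. Compared with the mean of the other 3 libraries on the log2 CPM scale (counts relative to library size after TMM scaling), replicate 1 was higher in 64 of 74 members, among them 17 of 17 ATP synthase genes, 31 of 36 complex I genes, 7 of 8 complex III genes and 9 of 13 complex IV genes, beside 60.6% of all genes of at least 10 TPM. Its median deviation was 0.20 for the ATP synthase, 0.13 for complex III, 0.10 for complex I and 0.06 for complex IV, beside 0.08 for all genes of at least 10 TPM. The complex I and IV medians were thus close to that of other expressed genes. Replicate 3 was higher than the others in 16 of 74 members, beside 46.7% of genes of at least 10 TPM, with medians of -0.12, -0.07, -0.11 and -0.13 in the same order, beside -0.02 for genes of at least 10 TPM. Replicates 2 and 4 had medians between -0.10 and 0.05, beside -0.11 and 0.04 for genes of at least 10 TPM. Replicate 2 was higher than the others in 25 of 74 members, beside 27.3% of genes of at least 10 TPM. Replicate 4 was higher in 38 of 74, beside 58.8%. By enzyme these were 16 of 36 for complex I, 3 of 8 for complex III, 10 of 13 for complex IV and 9 of 17 for the ATP synthase. Differences between the enzymes were not tested. The ATP synthase genes farthest up in replicate 1 were Atp5g1 (0.49) and Atp5s (0.44), and those of complexes I and IV were Ndufb6 (0.41) and Cox5a (0.49). Replicate 1 had the smallest number of counts and the smallest summed level of the 13 mitochondrially encoded mRNAs (1387 TPM, against 3282, 2963 and 1832 TPM in replicates 2 to 4), and the part of either in these deviations was not tested.

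**Figure D5:**
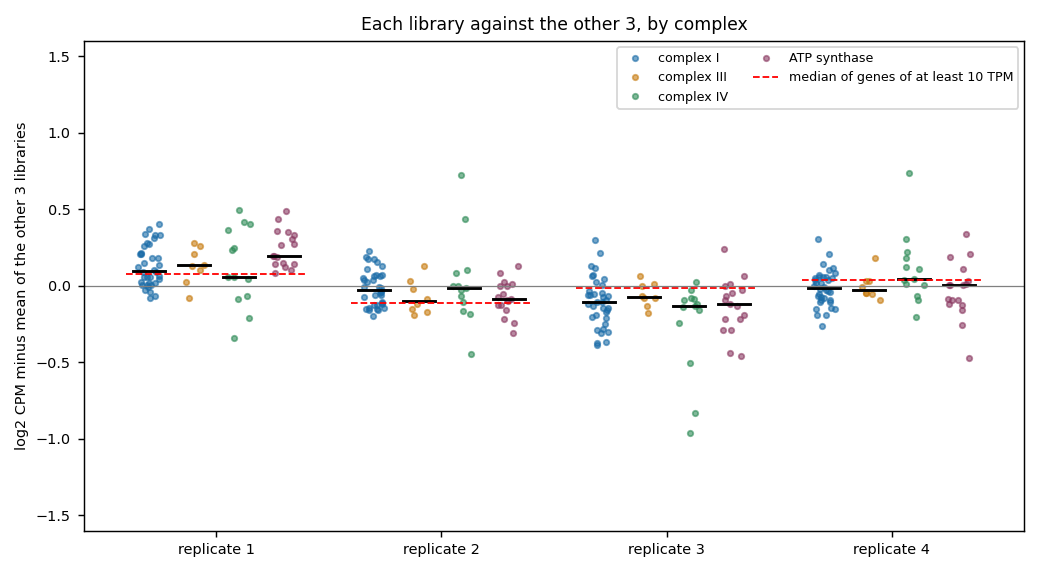
Deviation of each library from the mean of the other 3 (log2 CPM) for the 74 members with counts, by enzyme, with black bars at the medians and red dashed lines at the median of all genes of at least 10 TPM. In replicate 1 the 17 ATP synthase genes all lie above 0, and in replicate 3 the medians of the 4 enzymes lie between -0.13 and -0.07.

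Most members were read from 1 dominant transcript. The leading transcript held a median of 96.6% of the gene's TPM in the first quantification and 96.2% in the second, was the same transcript in both for 71 of 74 genes, and held over 90% in both for 41. It held under 60% in both for 7 genes: Atp5f1, Ndufs4, Ndufs1, Ndufb5, Ndufa3, Ndufc1 and Atp5s. For 4 genes the leading transcript of the first quantification was not a coding one. Ndufs4, an accessory subunit whose loss is known to cause Leigh syndrome, had 58.8%, 56.3%, 52.9% and 48.4% of its TPM in a 571-base transcript annotated for nonsense-mediated decay, and 25.5% in coding transcripts. Atp5j had 67.0%, 68.2%, 62.4% and 67.9% in a 526-base transcript annotated with a retained intron, and Ndufa5 had 59.7% ± 9.30 (SD, n = 4) in a 453-base processed transcript. Ndufc1 had 40.7% ± 3.93 in a 311-base retained-intron transcript. For Atp5b, 51.7% ± 1.41 lay in the coding transcript. Coding transcripts held 53.1% of the level of Ndufa3 and 53.9% of that of Atp5f1, and transcripts annotated for nonsense-mediated decay 45.7% and 44.7%. In Ndufs4, Atp5j, Ndufa5, Ndufc1, Atp5b, Ndufa3 and Atp5f1 the gene-level TPM above therefore includes a large share from transcripts not annotated as protein-coding. Cox7b was the gene in which the 2 quantifications differed most in this respect, with 97.0% ± 1.29 in Cox7b-201 in the first and 56.7% ± 5.80 in the second.

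The promoters of the members were searched for short motifs of factors known to control respiratory genes. Promoters in the RefSeq table (GRCm38.p6, 250 bases before to 50 after the annotated start) matched 65 of the 81 members, and both strands were searched. The core of the NRF1 site (GCGCANGCG) was present in 17 of 65 (26.2%), against 9.2% of all 16857 promoters and 16% of the 3439 promoters of genes of at least 10 TPM. The YY1 core (AANATGGC) was present in 23.1%, against 6.7% and 10%, and 11 of its 15 genes belonged to complex I, which supplied 32 of the 65 promoters (the difference was not tested). The core of ETS sites bound by GABP (CCGGAAG) was present in 20.0%, against 12.2% and 22.0%. The ERR core (AAGGTCA) was present in 10.8%, against 3.9% and 3.2%, and the Sp1 core (GGGCGG) in 40%, against 47.9% and 66.2%. CCAAT was present in 43.1%, against 39.0% and 37.7%, and TATAAA in 10.8%, against 13.1% and 8.0%. These matches are letters in a window and were not compared with any binding data.

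The 150 bases before the annotated start of 1 gene of complex I, 1 of complex IV and 1 of the ATP synthase with the NRF1 core are given here, because NRF1 is the factor best known for the control of respiratory genes. Each is the gene of highest mean TPM in its enzyme among those with the match inside these 150 bases. The capitals mark the match. They lie at chr4:123718187-123718336 (Ndufs5), chr5:115348959-115349108 (Cox6a1) and chr11:115419920-115420069 (Atp5h), all on the minus strand of GRCm38.p6.
Ndufs5: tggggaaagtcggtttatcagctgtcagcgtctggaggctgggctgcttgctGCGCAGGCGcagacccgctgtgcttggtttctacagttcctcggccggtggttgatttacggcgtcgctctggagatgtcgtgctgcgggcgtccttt
Cox6a1: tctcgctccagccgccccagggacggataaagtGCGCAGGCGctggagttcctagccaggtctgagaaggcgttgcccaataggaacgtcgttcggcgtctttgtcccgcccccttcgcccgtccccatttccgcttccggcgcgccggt
Atp5h: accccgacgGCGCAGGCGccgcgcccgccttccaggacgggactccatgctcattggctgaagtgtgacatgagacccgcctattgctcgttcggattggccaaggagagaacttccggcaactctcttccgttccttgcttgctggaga
Ndufs5, Cox6a1 and Atp5h had 51.3 ± 5.0, 134 ± 20.3 and 93.8 ± 10.7 TPM. Genes with the NRF1 core were spread over the range of levels and included Ndufb4, the lowest complex I gene, as well as Atp5l.

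Genes that work beside the subunits were also expressed, mostly at lower levels. Complex II, which feeds electrons from succinate and is wholly nuclear-encoded, had Sdhb at 76.8 ± 10.9 TPM, Sdhd at 47.2 ± 5.79, Sdha at 46.8 ± 8.58 and Sdhc at 34.2 ± 5.39, all 4 above 1 TPM. Of the structural and carrier genes that the name patterns miss, Usmg5 (180.5 ± 35 TPM) and Atpif1 (124 ± 9.74), a small ATP synthase subunit and the inhibitor of the enzyme, were among the highest. Ndufab1, the acyl carrier protein of complex I, had 33.9 ± 7.38 TPM, and the cytochromes Cyc1 and Cycs had 20.7 ± 3.89 and 19.6 ± 5.53 TPM. All 5 were above 1 TPM, and Cyc1 and Cycs stood below every complex III gene named above in mean TPM.

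Assembly factors had lower list medians than the subunits they serve. Of 15 complex I assembly genes, 14 were above 1 TPM, from 1.73 TPM for Tmem186 to 10.5 ± 1.87 for Ndufaf8, with a list median of 4.03 ± 0.372 TPM. Nubpl, which delivers iron-sulfur clusters to complex I, had 0.78, 0.85, 0.74 and 0.77 TPM and was on neither side. Of 6 complex III assembly genes, 5 were above (Uqcc2 34.8, Uqcc3 14.8, Uqcc1 12.7, Bcs1l 2.31 and Ttc19 1.66 TPM), and Lyrm7, a chaperone of the Rieske protein, was below 1 TPM with 0.19, 0.17, 0.19 and 0.39 TPM. Of 20 complex IV assembly genes, 19 were above, led by the copper chaperone Cox17 at 102 ± 14.9 TPM, and Pet117 was listed at 0 in every library. The 4 ATP synthase assembly genes Tmem70, Atpaf2, Atpaf1 and Fmc1 were above, at 6.73, 5.56, 4.78 and 3.66 TPM. Of 12 genes for transcription of respiratory genes and mitochondrial DNA, 11 were above, led by Esrra (11.1 ± 1.79 TPM), with a list median of 4.83 ± 0.911 TPM. Ppargc1a, the coactivator known for driving mitochondrial biogenesis in muscle and brown fat, had 0.01 TPM in replicate 3 and was listed at 0 in the others, while its relatives Ppargc1b and Pprc1 had 1.62 ± 0.452 and 6.58 ± 1.35 TPM. These counts stand beside 58.2% of all genes tested.

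The 13 mRNAs that mitochondrial DNA contributes to the same enzymes were all above 1 TPM in this cytosolic fraction. Their median was 117 ± 44.8 TPM, from 9.12 ± 3.55 for mt-Co2 to 778 ± 311 for mt-Atp8. Replicates 2 and 3 were higher than replicates 1 and 4 in the sum, an order that the nuclear genes did not share: their sum was 5166, 3952, 4437 and 5296 TPM in replicates 1 to 4. The nuclear sums followed the order of the share of TPM on protein-coding genes (31.73%, 25.31%, 29.97% and 36.64%). Their order was another one in the share of counts (0.445%, 0.398%, 0.394% and 0.393%). The part of the protein-coding share in these sums was not tested. Mitochondrial genes overlap or adjoin each other on both strands, so the division of reads among them is uncertain.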

How the data were processed

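Total RNA depleted of ribosomal RNA, from the cytosolic fraction, was sequenced in 4 libraries of 1 group (fragments of 250 to 400 bases per the labels). Per the file headers and deposited notes, the authors made 2 quantifications on mm10 with the M21 annotation. The first was made from a transcriptome alignment and gives, as deposited, the expected count, the TPM and its posterior mean per gene, the percent of a gene's TPM on each transcript and the posterior standard deviation of the count. The second was made directly from the reads and gives, as deposited, an estimated count and a TPM per transcript, which were summed per gene here. No aligner, counting tool or use of strand is named; these were not given in the sources used here.

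Levels were log2(TPM + 0.1), so differences of low genes are understated on this scale. Genes with at least 10 expected counts over the 4 libraries were tested. limma 3.58.1 (R 4.3.3; intercept only, variance trend) tested each gene against 1 TPM in each direction and, after subtracting the library's median over all members of a complex, against 0. limma treat (log2 difference of 1, no trend) compared the quantifications over genes with a mean of at least 1 TPM in either. All p-values were adjusted by Benjamini-Hochberg over all genes tested, with a threshold of 0.05. Spread is the gene's tagwise biological coefficient of variation, estimated with edgeR 4.0.16 after TMM scaling from expected counts rounded to whole numbers, with DESeq2 1.42.0 as an alternative. Paralogs were compared within libraries by an exact two-sided sign-flip permutation test. Shared sequence was measured as the percent of the 31-base words of a member's leading transcript that occur in transcripts of other genes. The fits were also run on simulated data. Those data had no shift between the quantifications shared by all genes, so they do not cover that feature of the real libraries. Intervals (95%) and the floor of 3 counts cover counting error only. Promoters came from RefSeq.

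The members and gene lists were chosen with earlier results of these data known. Genes were named in full by rule: the 3 highest and 3 lowest of each complex by mean TPM, the paralogs, members that differed between quantifications or had a leading transcript under 60% in both, and the extremes of spread. Of other lists, all genes of lists of up to 8 were named, and of longer lists the highest, the lowest and those not above 1 TPM. Other genes named for comparison were chosen after their values were seen. The values of 1 complex I gene are not reported here, although it is counted in the totals and medians.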

Additional observations from a re-analysis of the deposited data

Results flagged for a closer look

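In 74 members, 10 summaries of the enzymes and 77 other listed genes, a library was singled out where its gap to the nearest other library exceeded 0.829 of the range over the 4 libraries, which chance gives in about 1 in 20 groups. Of the members, 2 met this. Ndufb10, an accessory subunit of complex I, had 30.29 TPM in replicate 2, below 34.71 to 35.31 TPM in the others. Rescaled to protein-coding genes it had 111, 120, 117 and 94.7 in replicates 1 to 4, so replicate 2 was low in TPM only. Cox8a had 216.37 TPM in replicate 4, above 157.59 to 164.85 TPM in the others. Rescaled in the same way, Cox8a was highest in replicate 2 (633, against 591 in replicate 4). Protein-coding genes held 31.73%, 25.31%, 29.97% and 36.64% of the TPM in replicates 1 to 4. The part of these shares in the TPM values flagged here was not tested. Replicate 1 stood above the others in the share of counts on all members (0.445%, against 0.393% to 0.398%) and on complex III (0.0414%, against 0.0378% to 0.0382%). Of the other listed genes, Ndufaf2 had 4.82 TPM in replicate 1 (3.72 to 3.81 in the others). Replicate 4 was high for Lyrm7 (0.39 TPM, against 0.17 to 0.19), Sco1 (22.8 TPM, against 9.01 to 10.82) and Nrf1 (6.2 TPM, against 4.33 to 4.59).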

How the results depend on the processing

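No paired analysis was possible because all 4 libraries belong to 1 group, which leaves no groups to pair by replicate number; genes and quantifications were compared within libraries. Of the comparisons of single members with 1 TPM over all alternatives, 953 kept their direction and call and 3 reversed: Cox7a1 on the protein-coding scale (log2 1.49, and 1.58 in the second quantification on that scale) and Atp5s in the second quantification as deposited (-0.36). The number of members below 1 TPM was 7 with no filter on low counts, which brings in the 7 genes otherwise not tested, and 2 in the second quantification as deposited. Against the median of the members with counts, chosen after seeing the data, Cox5b (-0.78), Cox7a2 (-0.84) and Cox7a2l (-0.84) reversed. The pair Atp5g2 and Atp5g1 reversed in the second quantification (-1.67). The number of members lower in the second quantification was 1 after rescaling, 61 among genes of at least 10 TPM, 45 with a pseudocount of 1, 0 with no filter and 1 to 2 when each replicate was left out, and the cause was not tested. Without a filter, limma gave 0 calls among 81 members. Rescaled to protein-coding genes, the medians of complexes I, III and IV and the ATP synthase were 110.9, 242, 214 and 238 TPM. They were 12.3, 26.4, 24.2 and 25.8 TPM in the second quantification as deposited, and 109.0, 232, 214 and 227 TPM in it after rescaling. Complex I was the lowest in each. Over the members with counts, the complex IV median was 121.1 TPM. In the same order, the spread was 0.0746, 0.0728, 0.107 and 0.110 with DESeq2, and 0.165, 0.158, 0.178 and 0.180 from the second quantification's counts. Leaving out each replicate gave a spread of 0.117 to 0.142 for complex I, 0.108 to 0.136 for complex III, 0.114 to 0.147 for complex IV and 0.115 to 0.157 for the ATP synthase, with the lowest values without replicate 1.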
